A study of Rattus norvegicus with 11 samples.

Results

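Protein phosphatase subunits were described in hippocampus of rats on a ketogenic diet, rich in fat and low in carbohydrate, and of rats on a control diet. They were taken as all probe sets of the array whose single gene symbol in the platform annotation starts with Ppp and a digit, or with Ppm1. This gave 87 of 15923 probe sets, for 69 of the 10412 genes named by a single symbol. Of these phosphatase genes, 54 had 1 probe set and 15 had more. A further probe set annotated both to Ppp2ca and to a related symbol is outside this rule and was not used. Total RNA was measured on 11 arrays, 5 from the ketogenic diet and 6 from the control diet. The labels give the diet and a replicate number and call the ketogenic diet one that prevents epileptic seizures. They name no strain, age, sex, drug or diet duration. They also leave unstated whether the samples of a diet came from different animals, and a p-value here therefore refers only to the variation among these arrays, part of which may be technical. No scan or hybridisation date is given, so a batch that followed diet cannot be told apart from it. The number of arrays limits the precision.

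Protein phosphatases remove phosphate groups that kinases have added to serine and threonine. PP1 and PP2A have few catalytic subunits, which are directed to their substrates by many regulatory subunits. PP2A is a complex of a catalytic subunit, a scaffold (A) and an exchangeable regulatory subunit (B). Calcineurin, made of a catalytic A and a calcium-binding B subunit, is activated by calcium and calmodulin, is abundant in hippocampal neurons and is known there for its part in synaptic depression. PP4, PP5 and PP6 are related to PP2A, whereas the metal-dependent Ppm1 enzymes form a separate family without such subunits.

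The clearest difference was in PP2A regulatory subunits, where Ppp2r2b fell by 0.51 on the log2 scale on the ketogenic diet. Ppp2r5b fell as well, while Ppp2r2d and Ppp2r5e of the same subunit classes rose. Among the other subunits, single probe sets rose for the catalytic subunit Ppp1ca, the PP1 regulators Ppp1r12c and Ppp1r15b, the PP2A scaffold Ppp2r1b, calcineurin B (Ppp3r1), Ppp4r3b, Ppp6r1 and Ppm1a. Of the 87 probe sets, 76 passed a filter on low signal and were tested, with limma (p-values adjusted by Benjamini-Hochberg over the 11899 probe sets tested on the array). At an adjusted p under 0.05, 10 were called higher and 2 lower, and 64 were not called. The 12 calls were 15.8% of the tested members, against 16.5% of all tested probe sets, so the share of members called lay near the background. On the values as deposited, all calls divided into 1076 higher (9.04%) and 1736 lower (14.6%), and those of the members into 14 and 5. With each array centred on its 75th percentile the shares of all probe sets were 11.3% and 11.6%, 22.9% in all, and the members had 17 and 3. Calls higher in the main setting made up 13.2% of members against 8.62% of all tested probe sets, and calls lower 2.63% against 7.87%. The median log2 difference, ketogenic minus control, was 0.07 over the tested members and -0.00412 over all tested probe sets, and 49 members had a positive difference. Called members differed by 0.21 to 0.51. The ketogenic and control values did not overlap for 4 tested members, Ppp2r2b, Ppp2r2d, Ppp1r15b and Ppm1a, or 5.26%, against 6.99% of all tested probe sets.

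**Figure D1:**
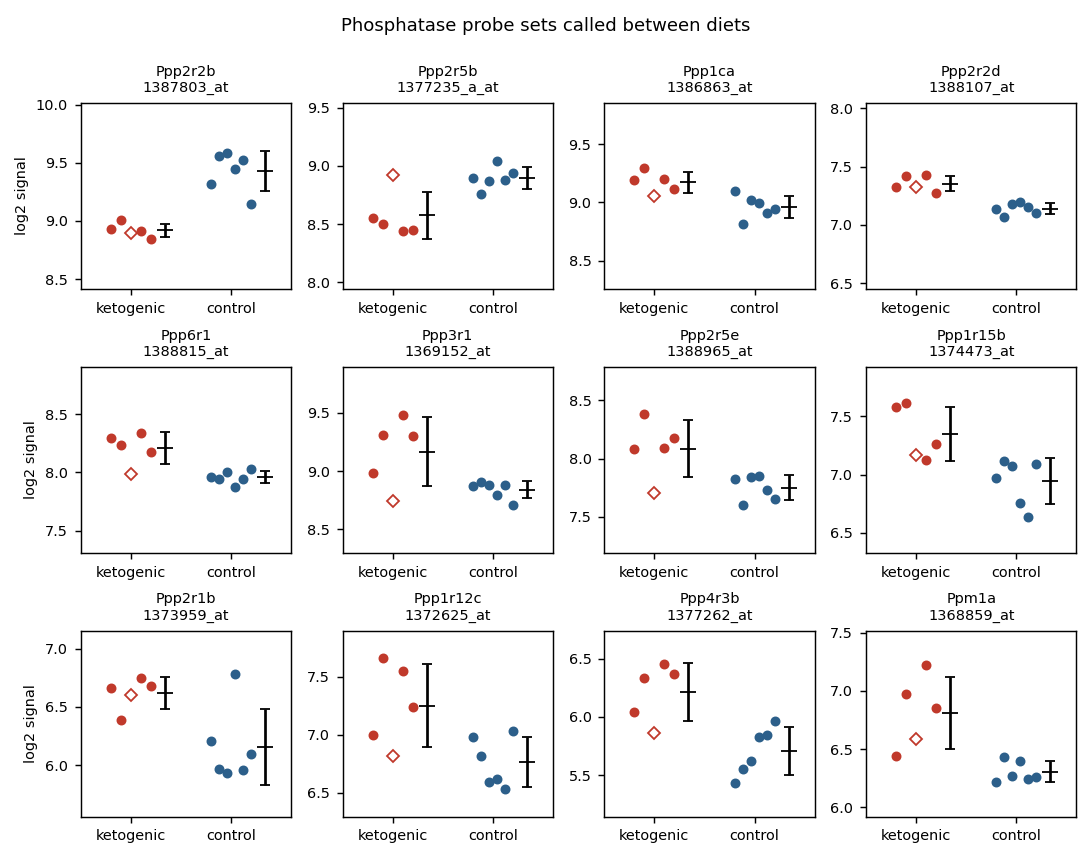
Log2 signal (quantile normalized, vertical axis) of the 12 called phosphatase probe sets on each ketogenic array (red, left) and control array (blue, right). Black bars are the mean and SD, the open diamond is ketogenic replicate 3, and every panel spans the same range. Ppp2r2b and Ppp2r5b lie lower on the ketogenic diet, and ketogenic replicate 3 lies within the control range in 8 of the 12.

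Several properties of whole arrays moved with diet and bear on every value here. The log2 ratio between 3 prime and 5 prime control probe sets, a measure of RNA degradation, was higher on ketogenic arrays for actin (0.75 to 0.99 on ketogenic arrays, 0.49 to 0.75 on control arrays, exact permutation test, two-sided, p = 0.00216, the smallest that 5 against 6 arrays allow, adjusted p = 0.00649 over 3 measures). For Gapdh the range was 0.13 to 0.34 on ketogenic and -0.07 to 0.15 on control arrays (exact permutation p = 0.00649, adjusted p = 0.00974). When limma carried both ratios as covariates, 0 phosphatase probe sets and 6 of all probe sets (0.0504%) were called, and 3 of 76 phosphatase probe sets reached an unadjusted p under 0.05, against 6.45% of all. Because the actin ratio did not overlap between the diets, this fit cannot tell diet and the ratios apart. Its SEs were larger, at 0.14 against 0.08 for Ppp2r2b, so the loss of calls does not show their cause. Ketogenic replicate 3, whose title carries an additional letter b, stood apart. It lay nearest to the control mean among ketogenic arrays in 7 of the 12 called members. Its median share of the diet difference in them was 0.38, against 0.98 to 1.38 for the other ketogenic arrays. Of hippocampal neuron markers 9 of 10 were tested, and 1 of them, Camk2a, was called, higher by 1.34 (adjusted p = 0.00397). Red cell markers fell in 4 of 4 tested genes of 6 listed, with summed signals of 295 to 385 on ketogenic and 1168 to 1623 on control arrays. Choroid plexus markers fell in 3 of 5 tested of 8 listed, with sums of 390 to 736 on ketogenic and 551 to 2034 on control arrays. Microglial markers fell in 2 of 5 tested and astrocyte markers in 2 of 6. The only positive differences on these lists were not called: C1qb of microglia at 0.31 and Slc1a3 of astrocytes at 0.23 (limma adjusted p = 0.0881 and 0.255). Of meningeal and fibroblast markers 1 of 6 fell, with a list median of -0.57, and 1 fell in each of the oligodendrocyte (of 5), striatal (of 4) and endothelial and mural (of 5) lists. Of 6 interneuron markers 0 were called by limma, and 1 had an unadjusted p under 0.05. In whole tissue, fewer cells of a type and less RNA per cell cannot be told apart. The part of these measures in the phosphatase differences was not tested beyond the covariate fits.

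In the main setting, PP2A regulatory subunits held the most calls of any family by count. They had 2 probe sets higher, 2 lower and 8 not called of 12 tested (median log2 difference 0.08). Over all tested probe sets 8.62% were higher and 7.87% lower. By share, PP1 catalytic subunits (1 of 3) and the PP2A scaffold (1 of 2), both small, were as high or higher. The ranking by count depended on the scaling. On the values as deposited, PP2A regulatory subunits had 2 higher and 3 lower, and calcineurin 5 higher of 7 (9.04% and 14.6% of all). Centred on the 75th percentile, they had 2 and 2, against 5 higher in calcineurin and 5 of 27 in PP1 regulatory subunits (11.3% and 11.6% of all). Ppp2r2b encodes a B55 subunit enriched in brain, and in humans a repeat expansion in its gene causes an inherited ataxia. Its log2 signals were 8.93, 9.0, 8.90, 8.91 and 8.85 on the ketogenic arrays, against a lowest of 9.14, a median of 9.49 and a highest of 9.58 on the control arrays. All 5 ketogenic arrays lay below all 6 control arrays. The difference was -0.51 (SE 0.08, 95% interval -0.67 to -0.35, adjusted p = 0.00227, limma), a 1.42-fold lower signal. It was called in each of the 11 fits that left out 1 array, at -0.57 to -0.48. Under the 3 prime to 5 prime covariates it was -0.35 (SE 0.14, adjusted p = 0.705), and it was called under the other 10 alternative settings.

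Ppp2r5b, a B56 subunit expressed in brain, had log2 signals of 8.56, 8.5, 8.92, 8.44 and 8.45 on ketogenic arrays, against 8.76, 8.88 and 9.04 (lowest, median and highest) on control arrays. Ketogenic replicate 3, at 8.92, lay within the control range and the other 4 lay below it. The difference was -0.32 (SE 0.09, adjusted p = 0.0234). It was -0.41 without ketogenic replicate 3, and it was not called without ketogenic replicate 2, 4 or 5. It was called on the values as deposited (-0.26) but not when centred on the 75th percentile (-0.22). With the spike-in covariate (-0.26) or the 3 prime to 5 prime covariates (-0.19) it was not called either.

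The other called B subunits had the opposite sign. Ppp2r2d, a B55 subunit best known for its part in leaving mitosis, was at 7.33, 7.42, 7.33, 7.43 and 7.27 on ketogenic arrays, against 7.07, 7.15 and 7.20 (lowest, median and highest) on control arrays. The groups did not overlap, but the difference was small, at 0.21 (SE 0.07, adjusted p = 0.0453). It was not called on the values as deposited (0.16) or with each array centred on its 75th percentile (0.19). Ppp2r5e, a B56 subunit, was at 8.08, 8.38, 7.70, 8.09 and 8.18 on ketogenic arrays, against 7.60, 7.78 and 7.85 on control arrays. Only ketogenic replicate 3 lay within the control range. The difference was 0.34 (SE 0.10, adjusted p = 0.0385), with 0.02 under the 3 prime to 5 prime covariates.

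These 4 genes are the B subunits with a call, and the 250 bases before each annotated start are shown so that their promoters can be set side by side. The sequences are from RefSeq, assembly GRCr8, and are written 5′ to 3′ on the gene's own strand. Ppp2r2b has 3 annotated starts, on the minus strand at chr18:35165017-35165266, chr18:35203015-35203264 and chr18:35331616-35331865, and which of them the probe set reports is not known here. Ppp2r5b lies on the minus strand at chr1:212964663-212964912, Ppp2r2d on the plus strand at chr1:203095332-203095581 and Ppp2r5e on the minus strand at chr6:100053574-100053823. Capitals mark matches, on either strand, to 3 motifs that do not overlap here: the cAMP response element TGACGTCA, the GC box GGGCGG and the CCAAT box CCAAT.
Ppp2r2b, start at lowest coordinate: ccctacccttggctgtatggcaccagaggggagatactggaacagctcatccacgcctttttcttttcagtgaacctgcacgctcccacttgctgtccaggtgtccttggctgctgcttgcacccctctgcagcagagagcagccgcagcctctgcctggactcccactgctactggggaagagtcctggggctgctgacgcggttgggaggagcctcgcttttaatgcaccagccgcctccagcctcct
Ppp2r2b, middle start: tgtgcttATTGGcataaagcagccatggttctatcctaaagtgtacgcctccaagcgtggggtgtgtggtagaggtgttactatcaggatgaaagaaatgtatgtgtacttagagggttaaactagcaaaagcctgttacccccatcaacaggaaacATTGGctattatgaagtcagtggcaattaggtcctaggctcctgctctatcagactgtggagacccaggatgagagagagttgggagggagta
Ppp2r2b, start at highest coordinate: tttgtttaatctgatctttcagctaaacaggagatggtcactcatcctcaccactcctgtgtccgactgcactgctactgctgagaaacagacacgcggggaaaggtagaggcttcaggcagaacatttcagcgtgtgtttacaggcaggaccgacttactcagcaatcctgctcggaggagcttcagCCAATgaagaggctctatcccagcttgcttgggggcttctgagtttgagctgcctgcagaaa
Ppp2r5b: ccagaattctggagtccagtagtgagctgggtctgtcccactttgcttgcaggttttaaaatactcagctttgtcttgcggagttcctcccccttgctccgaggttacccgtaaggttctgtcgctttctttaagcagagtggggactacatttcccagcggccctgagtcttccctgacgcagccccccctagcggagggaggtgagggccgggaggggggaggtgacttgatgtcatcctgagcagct
Ppp2r2d: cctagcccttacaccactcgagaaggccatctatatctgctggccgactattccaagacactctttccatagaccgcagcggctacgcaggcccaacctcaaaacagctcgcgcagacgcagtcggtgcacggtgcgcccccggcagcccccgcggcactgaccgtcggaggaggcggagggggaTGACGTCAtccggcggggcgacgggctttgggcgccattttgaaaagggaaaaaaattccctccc
Ppp2r5e: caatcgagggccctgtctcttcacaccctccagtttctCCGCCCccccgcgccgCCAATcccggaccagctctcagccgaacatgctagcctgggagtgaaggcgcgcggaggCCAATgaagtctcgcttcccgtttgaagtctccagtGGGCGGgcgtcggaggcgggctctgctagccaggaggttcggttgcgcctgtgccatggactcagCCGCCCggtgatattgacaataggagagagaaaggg
The Ppp2r2d window held 1 cAMP response element, and the Ppp2r5e window 3 GC boxes and 2 CCAAT boxes. The windows of Ppp2r2b held 0, 2 and 1 CCAAT boxes, and that of Ppp2r5b none of the 3 motifs. The ratio of observed to expected CpG was 0.307, 0.158 and 0.366 for the starts of Ppp2r2b and 0.398 for Ppp2r5b, both genes that fell. It was 0.951 for Ppp2r2d and 0.791 for Ppp2r5e, which rose, and 0.684 to 1.02 for the other 8 genes that rose. This grouping by direction was made after the calls were known, holds only 2 genes that fell, and was not tested. Of the 69 genes, 57 had an entry in the promoter table, with 59 windows. Their median GC content was 63.6%, against 51.2% over all 33469 windows, and their median CpG ratio 0.826 against 0.383. The cAMP response element was in 6.78% of the windows of phosphatase genes (4 of 59) and 1.59% of all windows, the GC box in 61.0% and 30.5%, and the CCAAT box in 42.4% and 34%. All windows were not matched to these for GC content or CpG ratio, and the shares were not tested. A match describes these letters and does not show a bound site.

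The remaining 8 tested PP2A B probe sets ranged from -0.59 to 0.28. Ppp2r2a, the most widely expressed B55 gene, had on 1 probe set the largest absolute difference among the 76 tested phosphatase probe sets, at -0.59 (SE 0.22, adjusted p = 0.0841). That probe set passed the filter only through its control values. It was called lower in 5 of 21 alternatives: both other scalings, the replicate block, array weights and without control replicate 6. Over these 21 its difference ranged from -0.77 to 0.00768. The other Ppp2r2a probe set was at 0.03 (adjusted p = 0.784). In the scaffold, Ppp2r1b, the beta isoform, was at 6.66, 6.39, 6.60, 6.75 and 6.68 on ketogenic arrays, against 5.93, 6.03 and 6.78 (lowest, median and highest) on control arrays. Control replicate 4, at 6.78, lay above all ketogenic arrays and the other 5 controls below them. The difference was 0.46 (SE 0.14, adjusted p = 0.0437), and 0.58 without control replicate 4. It was not called on the values as deposited (0.31) or with each array centred on its 75th percentile (0.34). Ppp2r1a, the alpha isoform, had a difference of -0.11 (95% interval -0.21 to -0.00125, adjusted p = 0.146). The catalytic subunits were not called, with Ppp2ca at -0.04 (95% interval -0.22 to 0.15) and Ppp2cb at 0.11 (95% interval -0.03 to 0.24). Ppp2cb was called under both other scalings, at 0.24 as deposited and 0.27 centred.

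**Figure D2:**
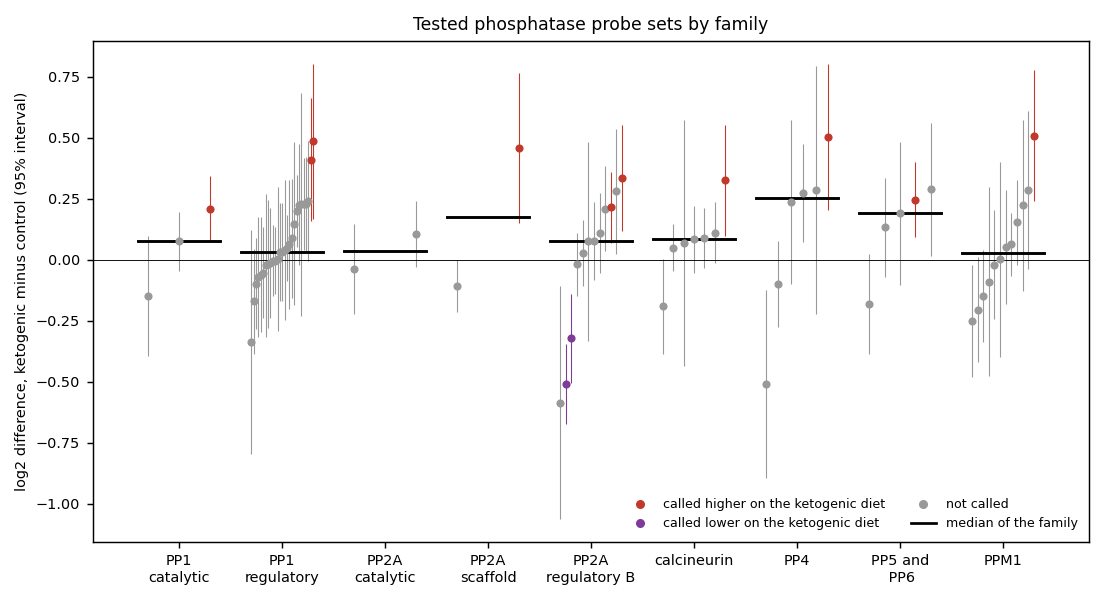
Log2 difference, ketogenic minus control (vertical axis, with 95% interval), of the 76 tested phosphatase probe sets by family, ordered by size within each. Red and purple points were called higher and lower, grey points were not called, and black lines are family medians, which lie between 0.03 and 0.26. PP2A regulatory B is the family that holds calls in both directions.

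Among PP1 catalytic subunits, Ppp1ca was at 9.19, 9.29, 9.06, 9.20 and 9.11 on ketogenic arrays, against 8.82, 8.97 and 9.09 (lowest, median and highest) on control arrays. The groups overlapped only through ketogenic replicate 3 and control replicate 1. The difference was 0.21 (SE 0.06, adjusted p = 0.0388), a 1.16-fold higher signal, and was called in 2 of 11 fits that left out 1 array. In the main setting, Ppp1cb (-0.15, 95% interval -0.39 to 0.10, adjusted p = 0.383) and Ppp1cc (0.08, 95% interval -0.04 to 0.20, adjusted p = 0.363) were not called. Ppp1cc was called higher in 2 of 22 alternatives, both other scalings, with a difference of up to 0.23. Ppp1cb was called in 0 of 22.

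PP1 regulatory subunits had 2 probe sets higher, 0 lower and 25 not called of 27 tested, beside a background of 8.62% higher and 7.87% lower. At an unadjusted p under 0.05, limma gave 5 higher and 0 lower of these 27, where 33.3% of all tested probe sets lay under it in either direction. Their median difference was 0.03, and -0.04 on the values as deposited. Ppp1r12c, a member of the family that targets PP1 to myosin, was at 7.0, 7.66, 6.81, 7.55 and 7.24 on ketogenic arrays, against 6.53, 6.72 and 7.03 on control arrays. Ketogenic replicates 1 and 3 lay within the control range. The difference was 0.49 (SE 0.15, adjusted p = 0.0401) and was called in 4 of 11 fits that left out 1 array. Ppp1r15b, which directs PP1 to the translation factor eIF2 alpha, was at 7.58, 7.62, 7.17, 7.13 and 7.27 on ketogenic arrays, against 6.64, 7.03 and 7.11 on control arrays. The groups did not overlap, with the lowest ketogenic array at 7.13 and the highest control array at 7.11. The difference was 0.41 (SE 0.12, adjusted p = 0.0321), and -0.00922 with the 3 prime to 5 prime covariates. Ppp1r15b was not called on the values as deposited (0.34). Ppp1r15a, its stress-induced relative, had a difference of -0.07 (adjusted p = 0.709).

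The tested probe sets of the classical PP1 inhibitors were not called in the main setting, and Ppp1r14c was not tested. Ppp1r1a, inhibitor 1, which blocks PP1 once protein kinase A has phosphorylated it, was at 8.43, 8.26, 8.35, 8.30 and 8.35 on ketogenic arrays, against 8.01, 8.14 and 8.32 on control arrays. Only control replicate 4 reached into the ketogenic range. Its difference was 0.20 (SE 0.07, adjusted p = 0.0609), and it was called on the values as deposited, under the 75th percentile, with the spike-in covariate and without control replicate 4. Ppp1r1b, known as DARPP-32 and best studied in striatum, had a difference of 0.23 (SE 0.12, adjusted p = 0.186). The 3 tested probe sets of Ppp1r2, inhibitor 2, disagreed in sign, at -0.17, 0.23 and 0.23 (adjusted p = 0.253, 0.0915 and 0.482). The second of these was called higher in 3 of 22 alternatives: centred on the 75th percentile, with array weights and without ketogenic replicate 3. Ppp1r11, inhibitor 3, was at -0.00296 (95% interval -0.14 to 0.13, adjusted p = 0.98). Ppp1r14a had a difference of 0.04 and the tested probe set of Ppp1r14b one of 0.06, with adjusted p of 0.862 and 0.754. Ppp1r9b, or spinophilin, which holds PP1 in dendritic spines, had a difference of 0.05 (adjusted p = 0.623).

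Calcineurin had 9 probe sets, of which 7 were tested, and 1 was called higher (median difference 0.08). Ppp3r1, the B subunit, was at 8.98, 9.31, 8.75, 9.48 and 9.30 on ketogenic arrays on the called probe set, against 8.71, 8.87 and 8.90 on control arrays. Ketogenic replicate 3 lay within the control range and the other 4 above it. The difference was 0.33 (SE 0.11, adjusted p = 0.0499), at the edge of the threshold, and the call was kept in 1 of 11 fits that left out 1 array, that without ketogenic replicate 3 (0.43). The other Ppp3r1 probe set was at 0.08 (SE 0.06, adjusted p = 0.383). Ppp3r2, a B subunit known from testis, was at 0.07 (95% interval -0.43 to 0.57).

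The catalytic A subunits of calcineurin were not called. Ppp3ca, the A alpha gene, was at 11.81, 11.70, 11.48, 11.52 and 11.63 on ketogenic arrays on its first probe set, against 11.44, 11.54 and 11.64 on control arrays. The groups overlapped, with a difference of 0.09 (95% interval -0.03 to 0.21, adjusted p = 0.296), and the second probe set was at 0.05 (95% interval -0.05 to 0.14). The probe sets of Ppp3cb, the A beta gene, had opposite signs, at 0.11 and -0.19 (adjusted p = 0.194 and 0.16). Ppp3cc, the A gamma gene, was not tested, since 1 probe set lay at the floor on all 11 arrays and the other was low on both diets (4.55 to 5.06 on ketogenic and 2.87 to 5.10 on control arrays). The calls in this family depended on the scaling. On the values as deposited 5 of its 7 probe sets were called higher, both of Ppp3ca, both of Ppp3r1 and 1 of Ppp3cb, with a median of 0.20, where 9.04% of all tested probe sets were called higher (23.6% in either direction) and the median over all was -0.06. Centred on the 75th percentile, 5 of 7 were called as well, with a median of 0.24 (11.3% of all tested probe sets called higher).

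**Figure D3:**
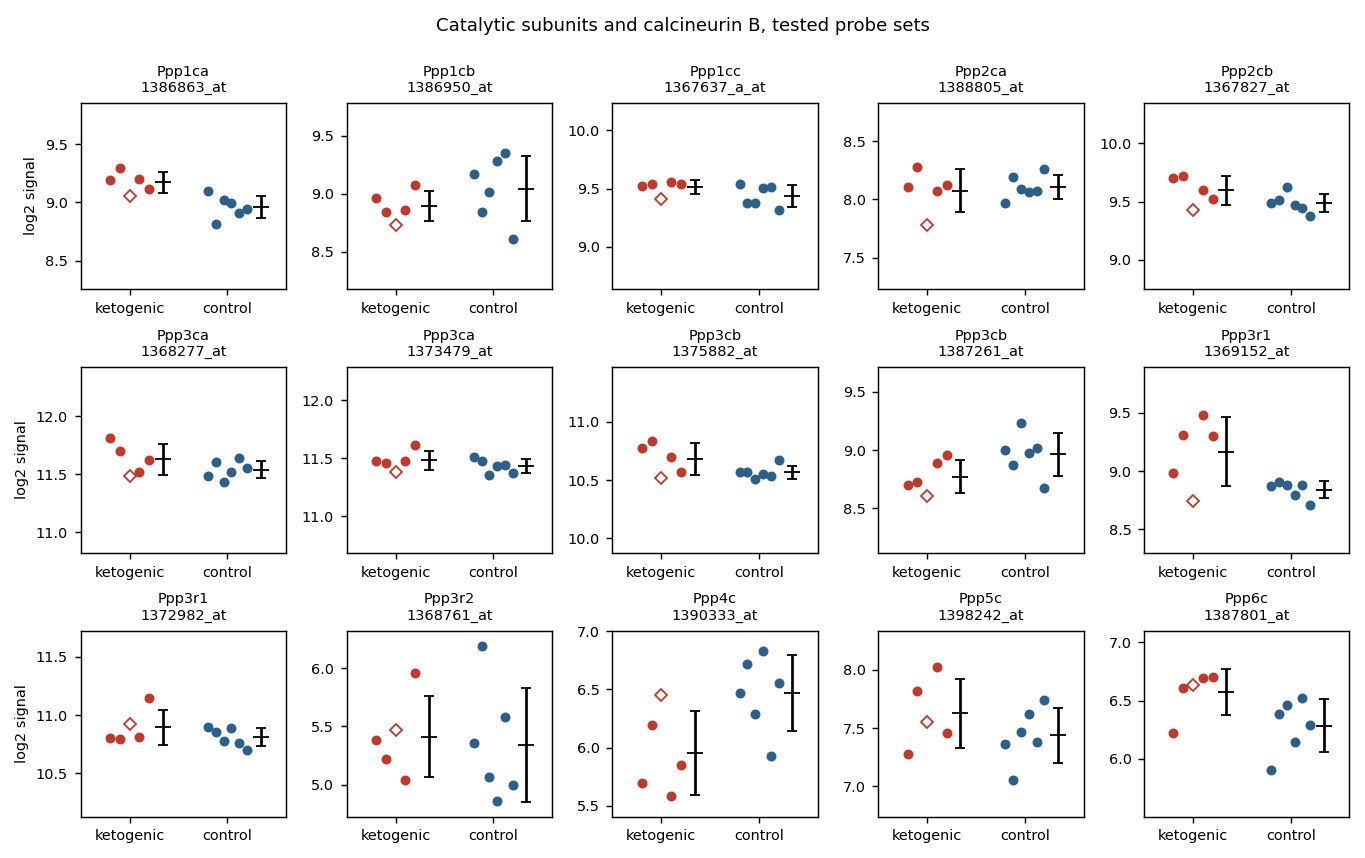
Log2 signal (vertical axis) of the 15 tested probe sets of catalytic subunits and of calcineurin B on ketogenic arrays (red, left) and control arrays (blue, right), with mean and SD. The open diamond is ketogenic replicate 3, and each panel spans the same range. The diets overlap in all panels, and those of Ppp1ca and the first of Ppp3r1 hold the 2 calls.

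In PP4, a phosphatase with roles in DNA repair and centrosomes, 1 of 6 tested probe sets was called. Ppp4r3b, a regulatory subunit, was at 6.04, 6.33, 5.86, 6.45 and 6.37 on ketogenic arrays, against 5.43, 5.72 and 5.97 on control arrays. Only ketogenic replicate 3 lay within the control range. The difference was 0.50 (SE 0.14, adjusted p = 0.0288), and the second probe set of Ppp4r3b had 0.27 (SE 0.09, adjusted p = 0.058). The catalytic subunit Ppp4c was at 5.70, 6.20, 6.46, 5.58 and 5.85 on ketogenic arrays, against 5.92, 6.52 and 6.83 on control arrays. Ketogenic replicates 1, 4 and 5 lay below all controls, and 2 and 3 among them. The difference was -0.51 (SE 0.18, adjusted p = 0.0661). It was called without ketogenic replicate 3 (-0.63), without control replicate 5 (-0.62), with array weights and on both other scalings (-0.67 as deposited and -0.64 centred). The median of PP4 was 0.26, and 0.06 on the values as deposited.

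In PP5 and PP6, 1 of 5 was called. Ppp6r1, which encodes a targeting subunit of PP6, was at 8.29, 8.23, 7.99, 8.34 and 8.17 on ketogenic arrays, against 7.87, 7.95 and 8.03 on control arrays. Ketogenic replicate 3 was again the array within the control range. The difference was 0.25 (SE 0.07, adjusted p = 0.0327). Ppp6c, the catalytic subunit, was at 0.29 (SE 0.13, adjusted p = 0.129), and Ppp5c, a chaperone-bound phosphatase, at 0.19 (SE 0.14, adjusted p = 0.35).

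In the Ppm1 family 1 of 12 was called, and the median of 0.03 was -0.02 on the values as deposited. Ppm1a, which acts on the SMAD proteins of TGF-beta signalling among other substrates, was at 6.44, 6.97, 6.58, 7.22 and 6.85 on ketogenic arrays, against 6.22, 6.26 and 6.43 on control arrays. The groups did not overlap, although ketogenic replicate 1 lay close to the highest control. The difference was 0.51 (SE 0.13, adjusted p = 0.0181), a 1.42-fold higher signal, and it was not called without ketogenic replicate 2 or 4. The other 11 tested Ppm1 probe sets ranged from -0.25 for Ppm1l to 0.29 for Ppm1d, with adjusted p of 0.121 or more, and included Ppm1k, the phosphatase that activates branched-chain amino acid breakdown, at 0.15 (adjusted p = 0.208).

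Of the 11 genes with over 1 tested probe set, 8 had the same sign on all and 3 (Ppp1r2, Ppp2r2a and Ppp3cb) did not. No gene had more than 1 called probe set. The 11 untested probe sets were both of Ppp3cc and 1 each of Ppp1r14b, Ppp1r14c, Ppp1r18, Ppp1r3b, Ppp1r9a, Ppp2r2c, Ppp4r3a, Ppm1f and Ppm1j, so 7 genes had none tested. The within-diet SD of the tested members had a median of 0.17 on ketogenic and 0.15 on control arrays, and the SE of the difference a median of 0.10.

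**Figure D4:**
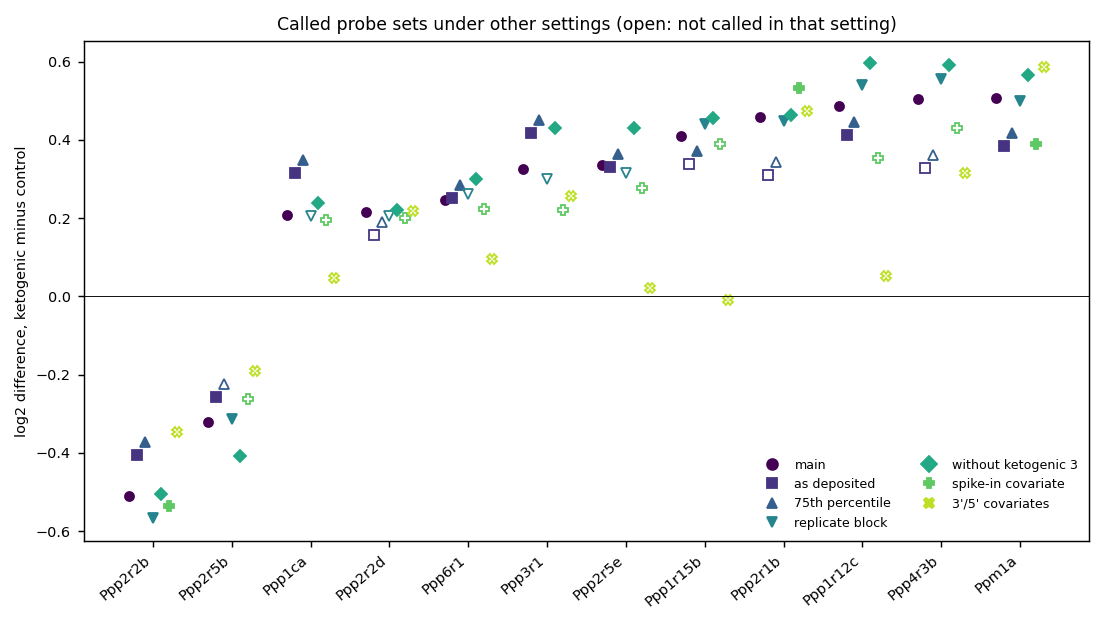
Log2 difference, ketogenic minus control (vertical axis), of the 12 called probe sets (horizontal axis) in the main setting and 6 others. Filled symbols were called in that setting and open ones were not. Ppp2r2b is filled in all but the fit with 3 prime to 5 prime covariates, in which Ppp1r15b moves to -0.00922 and Ppp1r12c, Ppp2r5e and Ppp1ca to within 0.06 of 0.

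The count of calls depended on single arrays. Against 12 with all arrays, 5, 1, 20, 2 and 3 members were called without ketogenic replicates 1 to 5 in that order, and 9, 4, 4, 7, 5 and 10 without control replicates 1 to 6. Over all tested probe sets the share called was 10.2%, 7.19%, 26.6%, 6.77% and 10.4% without those ketogenic arrays, and 14.5%, 9.82%, 10.6%, 11.5%, 10.6% and 16.4% without those control arrays. The count of members broadly rose and fell with this background. As a share of the 76 tested members it was below the background in every such fit. Without ketogenic replicate 2, for example, it was 1 of 76 against 7.19%. All 12 kept their sign in each of these fits. Besides Ppp2r2b, the calls were kept in 9 of 11 such fits for Ppm1a, 8 for Ppp2r5b, 7 for Ppp1r15b and 6 for Ppp4r3b. They were kept in 4 for Ppp1r12c, 3 for Ppp2r5e, 3 for Ppp6r1, 2 for Ppp1ca, 2 for Ppp2r1b, 1 for Ppp2r2d and 1 for Ppp3r1.

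Partners of these phosphatases and their relatives under other names were read from 5 lists, with 1 probe set a gene, in the main limma fit. Over all tested probe sets 8.62% rose and 7.87% fell in that fit, and 33.3% had an unadjusted p under 0.05 in either direction. Of 22 calcineurin partners 13 were tested, and 0 rose and 2 fell (3 and 4 at an unadjusted p under 0.05). Nfatc4, a transcription factor that calcineurin moves to the nucleus, was at 6.63 to 7.99 on ketogenic and 8.02 to 8.47 on control arrays, a difference of -1.09 (SE 0.19, adjusted p = 0.00391). Nfat5, at -0.43 (adjusted p = 0.0284), is a relative on the same list that responds to tonicity and is not known to be controlled by calcineurin. Of the 2 genes called lower on this list, only Nfatc4 thus encodes a protein known to be acted on by calcineurin. Of 19 PP2A modulators 15 were tested, and 0 rose and 2 fell (1 and 4 unadjusted), counts near that background. They were Strn, a striatin that binds PP2A as a B subunit, at -0.52 (adjusted p = 0.0497), and Nsmaf, which links the TNF receptor to sphingomyelinase, at -0.45 (adjusted p = 0.034). Of 27 PP1 partners 17 were tested, and Cnst rose by 0.54 (adjusted p = 0.0458). Of 8 other metal-dependent phosphatases 6 were tested, and Phlpp1, which acts on the kinase Akt, rose by 0.54 (SE 0.10, adjusted p = 0.0046). The last list held kinases that oppose these enzymes, together with regulatory subunits of protein kinase A and an activator of Cdk5. Among its 21 tested genes, Camk2a, the neuronal marker named above and the same probe set, rose by 1.34 (adjusted p = 0.00397) and Camkk1 by 0.27 (adjusted p = 0.0224). Cdk5r1, the activator of Cdk5, fell by 0.55 (adjusted p = 0.0095), and the other 18 were not called.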

How the data were processed

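Total RNA of hippocampus was measured on 11 arrays. Each array has 1 deposited column of linear intensities, 1 per probe set, and how the authors made them from scans is not stated in the sources used. These deposited intensities had trimmed means of 150.02 to 150.03 and medians of 79.9 to 94.2 on each array. Because the log2 medians spanned 0.24, above a limit of 0.1, values were quantile normalized, set to at least the 5th percentile (5.02) and taken as log2. The 57 control probe sets and the 25% with the lowest mean (log2 under 5.17) were not tested. For ketogenic minus control, limma 3.58.1 (R 4.3.3) was run with lmFit and a variance trend in eBayes. Its two-sided p-values were adjusted by Benjamini-Hochberg over 11899 probe sets, and the threshold was 0.05. "Called" means past it. The fit was tested on simulated data.

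Symbols are those of the platform annotation, and all 87 gene identifiers were found in a RefSeq table of GRCr8 with the same symbol. The members, gene lists and tests were chosen with earlier results of these data known. Named are all called members, catalytic, scaffold, calcineurin and inhibitor genes, and the 6 largest differences, and a few further members (Ppp1r15a, Ppp1r9b, Ppm1l, Ppm1d, Ppm1k and Ppp1r18) and the promoters shown were picked after their values were seen. Levels are not compared between probe sets. Alternatives were other scalings, floors and filters, a replicate block, array weights, no variance trend, the covariates (3 prime to 5 prime ratios, and the mean of 45 spike-in probe sets as deposited) and leaving out each array.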

Additional observations from a re-analysis of the deposited data

Results flagged for a closer look

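Among 82 groups of named probe sets and array measures, 6 held an array whose gap to its nearest neighbour took up most of the group's range, where chance gives about 1 in 20 groups, or 4.1. Ketogenic replicate 3 was that array for Ppp2r5b, at 8.92 against 8.44 to 8.56 on the other ketogenic arrays, and for Ppp1cc, at 9.41 against 9.52 to 9.56. Ketogenic replicate 1 was low for Ppp6c, at 6.22 against 6.61 to 6.70. Control replicate 4 was high for Ppp2r1b, at 6.78 against 5.93 to 6.21 on the other controls. Control replicate 6 was low for the uncalled Ppp2r2a probe set, at 4.94 against 5.67 to 6.07, and control replicate 2 for Ppp1r11, at 8.56 against 8.66 to 8.70.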

How the results depend on the processing

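Of 10 members called higher, 2 called lower and 1962 probe sets called in all, the first count was 17 when centred on the 75th percentile, 6 with no filter, 5 with the replicate block, 5 without a variance trend, 0 with the 3 prime to 5 prime covariates and 3 with the spike-in covariate (11.3%, 4.88%, 7.97%, 7.08%, 0% and 3.97% of all tested probe sets). The second was 5 on the values as deposited, 5 with array weights, 0 with the 3 prime to 5 prime covariates and 1 with the spike-in covariate (14.6%, 12.9%, 0.0504% and 3.66% of all). The third was 3136 with array weights, 6 with the 3 prime to 5 prime covariates and 907 with the spike-in covariate. Leaving out 1 array at a time gave 0 to 16, 1 to 4 and 806 to 3165. The cause was not tested. On the values as deposited the calls over all were 1076 higher and 1736 lower, against 1026 and 936 in the main setting, and 14 and 5 among members. Ppp1r15b turned to -0.00922 with the 3 prime to 5 prime covariates, under which the SE of called members was larger (0.14 against 0.08 for Ppp2r2b). Same-numbered arrays of the 2 diets had correlations of 0.00895 to 0.0771. These are not correlations of the signals themselves, which differed far more between probe sets than between arrays. Ketogenic replicates 3 and 4 correlated best with the control of their own number, and replicates 1, 2 and 5 with another. Low correlations cannot exclude a pairing, and the labels do not settle it. The replicate block over 5 numbers gave 1815 calls in all and 8 among members, 7 of them called in the main setting. Uncalled values changed sign in 29 comparisons.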

Other observations

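Of the 87 probe sets, 11 lay under the testing level, and 5 of the 87 were at the floor on at least 1 array. Without the filter, Ppp1r14c, a PP1 inhibitor of brain, was called higher on the ketogenic diet, at 4.99 ± 0.35 (SD, n = 5) against 4.39 ± 0.15 (SD, n = 6) on the control diet (log2 difference 0.60, SE 0.16, adjusted p = 0.044, limma). Ppp1r18, also called phostensin, was at 5.35 ± 0.60 on the ketogenic and 4.38 ± 0.63 on the control diet (adjusted p = 0.105). The measurable probe set of Ppp3cc was at 4.91 ± 0.21 on the ketogenic and 3.97 ± 0.85 on the control diet (adjusted p = 0.128). Without the filter, 8.84% of 15866 probe sets at all signal levels were called.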
